A study of Mus musculus with 18 samples.

Results

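H19, Igf2, Grb10 and Nnat are imprinted genes, which in most tissues are transcribed from 1 parental copy only. They are 4 of the 24505 gene entries measured, taken by symbol, and each symbol matched 1 entry. All 4 passed the filter on low values, which asked for 3 or more libraries with an FPKM of 1 or more and left 18002 genes. FPKM is the number of fragments counted per kilobase of transcript, scaled to library size. The 4 genes were selected on their levels in these same libraries, with the differences between genotypes in view, so their levels and differences are given as a description with no p-value.

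RNA was sequenced from 18 libraries of E14Tg2a, a male mouse embryonic stem cell line, with 3 libraries in each of 6 groups. Wild-type parental cells and a Daxx-/- line made from them, called Daxx-null below, were each grown in 3 cultures. In serum, medium held leukaemia inhibitory factor (LIF, 1000 units/mL), which keeps stem cells from differentiating. In 2i, a culture that the sample titles name the ground state, that is of pluripotency, vitamin C was at 100 µg/mL. For retinoic acid, cells from serum spent 24 h without LIF and then 4 days in 10 µM retinoic acid, which the submitters describe as neural differentiation. Daxx is a histone chaperone that with Atrx places the histone variant H3.3 at repeats and other silent regions. The sources used here give neither the number of Daxx-null clones nor the deleted part of the gene, and an effect of Daxx loss and any other change of that line cannot be told apart.

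The imprint of a gene is DNA methylation laid down in the egg or the sperm at a control region and kept through development. H19 and Igf2 share enhancers. On the maternal copy, the insulator protein Ctcf binds the unmethylated control region between them and H19 is transcribed, whereas on the paternal copy the region is methylated and Igf2 is transcribed. Zfp57 and Trim28 protect methylated control regions in stem cells. These libraries were not split by parental allele, so each value sums both copies.

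H19 is a long non-coding RNA and the host of miR-675. Its entry (NR_130973) lies on mm9 chromosome 7 from 149761435 to 149764051 on the minus strand. Igf2 encodes insulin-like growth factor 2, a fetal growth factor, and its entry (NM_001315488) lies 72.62 kb farther along, from 149836673 to 149852721 on the minus strand. Grb10 encodes an adaptor that restrains insulin and insulin-like growth factor receptors and limits growth, and it is maternally expressed in most tissues and paternally in neurons. Its entry (NM_001177629) lies on chromosome 11 from 11830502 to 11927974 on the minus strand. Nnat encodes neuronatin, a small membrane proteolipid of neurons and endocrine cells, and it is paternally expressed. Its entry (NM_180960) lies on chromosome 2 from 157385814 to 157388261 on the plus strand, inside the span of Blcap, which is read from the other strand.

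Both the miRNA that H19 hosts and the promoters of the protein-coding genes can be shown as sequence. The RefSeq table (GRCm38.p6, a different build from the mm9 of the values) gives both mature arms of miR-675, at chr7:142577112-142577133 and chr7:142577078-142577099 on the minus strand. They are shown because H19 is the only source of this miRNA in the table. Capitals mark the seed, bases 2 to 8, and 0 others of the 1738 mature mouse miRNAs in the table share either seed.
miR-675-5p: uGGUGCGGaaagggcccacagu
miR-675-3p: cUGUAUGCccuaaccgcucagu
Promoter windows, from 250 bases before to 50 after a start site, were matched for 3 of the 4 genes, Grb10, Igf2 and Nnat, with 7 windows in all. The Nnat window at chr2:157559828-157560127 on the plus strand and the Grb10 window at chr11:12037371-12037670 on the minus strand are shown because these genes were low together in Daxx-null cells. Capitals mark TGCCGC read on the opposite strand (GCGGCA), the letters that Zfp57 reads when methylated. Of the Grb10 windows, only the one shown holds these letters. Whether this window or the other Grb10 window given below holds the start site of the measured Grb10 entry was not checked, since the builds differ. The letters are therefore not tied to the transcript measured.
Nnat: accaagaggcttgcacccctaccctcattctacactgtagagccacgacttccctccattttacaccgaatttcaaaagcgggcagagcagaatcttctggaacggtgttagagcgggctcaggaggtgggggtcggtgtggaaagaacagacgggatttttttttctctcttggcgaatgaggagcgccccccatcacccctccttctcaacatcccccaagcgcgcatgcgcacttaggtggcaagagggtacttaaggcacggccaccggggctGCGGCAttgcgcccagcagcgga
Grb10: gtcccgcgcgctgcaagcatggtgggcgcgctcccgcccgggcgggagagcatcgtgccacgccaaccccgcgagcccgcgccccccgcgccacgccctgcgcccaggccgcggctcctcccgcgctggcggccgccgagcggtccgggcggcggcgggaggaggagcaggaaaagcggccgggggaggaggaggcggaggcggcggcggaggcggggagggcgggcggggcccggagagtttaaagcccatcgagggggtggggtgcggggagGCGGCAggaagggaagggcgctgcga
The Nnat window holds 17 CG pairs and the Grb10 window 45, more than 98.1% of the 32851 mouse windows, whose median is 7. The other Grb10 window, at chr11:12027922-12028221, holds 9 CG pairs and no TGCCGC, and 1 of the 4 Igf2 windows holds TGCCGC. Searched on both strands, TGCCGC is found in 11.6% of all windows of this length. The core motif of Ctcf is in 0.0365% of windows and the direct repeat that retinoic acid receptors read is in 0.00913%, and neither is in a window of these genes. A match is a match of letters and was not tested as a binding site.

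Daxx itself was at 237.6 to 434.3 FPKM in the 9 wild-type libraries and 54.4 to 73.7 in the 9 Daxx-null libraries. Counts over genes, recovered from the step size of low FPKM, summed to 51.07 to 82.43 M per library (1 M is 1000000). The cells carried stem cell markers in serum and in 2i, where the 10 pluripotency markers summed to between 10250.0 and 37800.0 FPKM, against 575.6 to 943.8 in the retinoic acid libraries. Of the 12 neural markers, 12 were at an FPKM of at least 1 in both genotypes after retinoic acid, but their sum, 1061 to 1386 in wild type, was no higher than in wild-type serum (1492 to 1799), and the endoderm and mesoderm sums were each above those of serum. The retinoic acid cells are therefore named by their culture and not as neurons. The 3 Y-linked genes Eif2s3y, Uty and Ddx3y summed to 155.5 FPKM or more in every wild-type library, to 2.68 or less in Daxx-null serum and retinoic acid, and to 173.2 to 236.5 in Daxx-null 2i. In serum and retinoic acid the genotypes thus differed in this Y-linked RNA in every library. Genotype and the state behind this RNA cannot be told apart there. Medium and that state cannot be told apart where Daxx-null 2i libraries are compared with other Daxx-null libraries. The same holds where the genotype difference in 2i is set against that of another culture. Wild-type 2i replicate 3 correlated less with its sister libraries (r = 0.9741 and 0.9757 over genes, against 0.9921 between those 2), as did Daxx-null 2i replicate 2 (0.9319 and 0.9397 against 0.9851). The 2i differences of the 4 genes and the 2i counts of neighbours and lists are given with and without these 2 libraries, a choice made after seeing the data, as are single genes whose call ended without them.

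**Figure D1:**
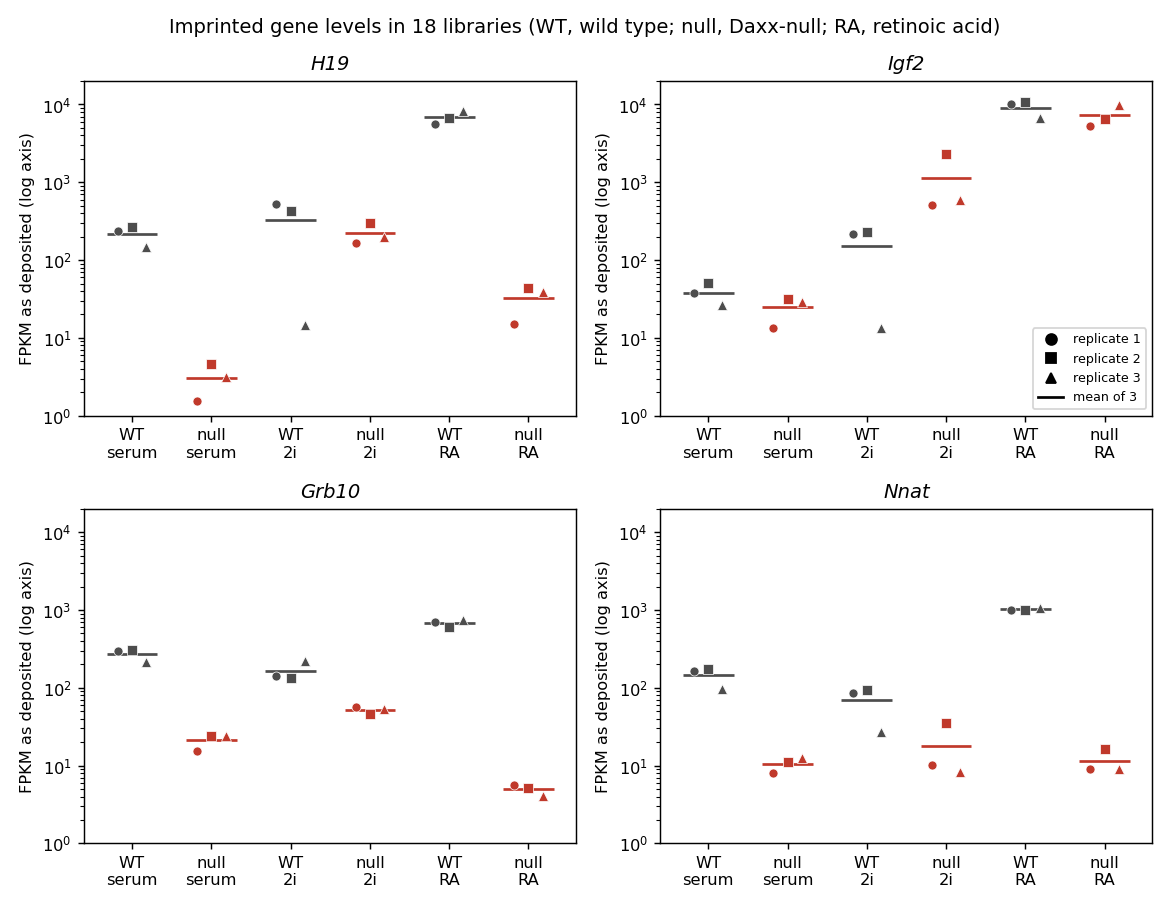
Level of each imprinted gene in all 18 libraries, as deposited FPKM on a log axis, with 1 panel per gene and 1 symbol per replicate. Bars are means of 3 libraries. In retinoic acid the wild-type levels of H19, Grb10 and Nnat stand far above the Daxx-null levels, while those of Igf2 overlap.

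In serum, H19, Grb10 and Nnat were each lower in every Daxx-null library than in any wild-type library, and Igf2 was low in both genotypes. H19 was at 238, 268 and 146 FPKM in wild-type replicates 1 to 3 and at 1.56, 4.57 and 3.14 in Daxx-null cells, the latter resting on 39, 132 and 83 counts. The groups were apart by a wide margin, with the lowest wild-type library 31.86 times the highest Daxx-null library. Grb10 was at 295, 306 and 214 FPKM in wild type and 15.4, 24.3 and 23.8 in Daxx-null cells. Nnat was at 164, 177 and 97.8 FPKM in wild type and 7.98, 11.1 and 12.5 in Daxx-null cells. Wild-type replicate 3 was the lowest of its group for all 3 genes, and still above all Daxx-null libraries. Igf2 was at 37.3, 50.1 and 26.3 FPKM in wild type and 13.4, 31.5 and 29.1 in Daxx-null cells, so its groups overlapped.

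On the log2(FPKM + 0.5) scale, which understates changes of low genes, Daxx-null serum cells differed from wild type by -5.97 for H19 (SE 0.917), a 70.4-fold difference of means. Only 2 of the 18002 genes had a lower value. The difference was -3.66 for Grb10 (SE 0.209, 12.8-fold) and -3.71 for Nnat (SE 0.487, 13.9-fold), and 19 and 15 genes lay lower. Igf2 differed by -0.65 (SE 0.814). Each SE uses 1 estimate of spread shared by all 18 libraries, including the 2i libraries that stand apart. For Igf2 the larger log2 SD of the 2 serum groups was 0.663. Thus 3 of 4 genes were lower with non-overlapping libraries in serum, as were 35.6% of all genes tested, and the choice of the genes used these levels. In bulk RNA, fewer cells that express a gene and less RNA per cell cannot be told apart. Marker sums of several other cell types were lower too, though not every marker was. The 12 endoderm markers summed to 75.41 to 97.15 FPKM in wild-type serum and 22.92 to 28.48 in Daxx-null serum (9 and 6 of 12 at a mean of at least 1, with Ttr at 0 in Daxx-null and Afp in wild-type cells). Sox7 (9.55 against 4.29 FPKM) and Apob (0.742 against 0.278) of that list were higher in Daxx-null serum without overlap. The 12 mesoderm and fibroblast markers summed to 52.49 to 79.39 and 12 to 31.79 (7 and 5 of 12, with Postn and Lum at 0 in Daxx-null cells), and the 12 trophoblast markers to 85.51 to 188 and 49.81 to 86.42, which overlap (6 and 7 of 12, with Prl3d1, Prl2c2 and Tpbpa at 0 in both). The neural sums were 1492 to 1799 and 1493 to 1688. The part of such cells in the levels of H19, Grb10 and Nnat was not tested.

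For H19, Grb10 and Nnat, but not for Igf2, the genotypes were farthest apart in retinoic acid. Wild-type cells were at 5689.8, 6619 and 8122 FPKM of H19 in replicates 1 to 3, and Daxx-null cells at 14.9, 43.4 and 38.4. The lowest wild-type library was 131 times the highest Daxx-null one. Grb10 was at 697, 596 and 749 FPKM in wild type and only 5.71, 5.18 and 4.04 in Daxx-null cells. These Grb10 levels were the lowest of any group, though they still rested on 266 to 332 counts per library. Nnat was at 999.9, 995.5 and 1054 FPKM in wild type and 9.10, 16.2 and 9.04 in Daxx-null cells. The wild-type Nnat libraries differed by little among themselves (1017 ± 32.6, SD, n = 3), and no Daxx-null library came near them.

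Igf2 took another course in retinoic acid. It was at 10008, 10618 and 6660.5 FPKM in wild type and at 5285.5, 6594.5 and 9968 in Daxx-null cells. The groups overlapped, since Daxx-null replicate 3 was above wild-type replicate 3. The means were 9096 ± 2131 and 7283 ± 2416 (SD, n = 3), and the difference was -0.34 (SE 0.814) on the log2 scale. That SE uses the spread shared by all 18 libraries. In retinoic acid the larger log2 SD of the 2 groups was 0.465, so the difference is within the spread of these replicates. Equal levels are not shown.

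The log2 differences in retinoic acid were -7.82 for H19 (SE 0.917, 211-fold), -6.96 for Grb10 (SE 0.209, 137-fold) and -6.46 for Nnat (SE 0.487, 88.7-fold). Of the 18002 genes, 1 lay lower than H19, 2 lower than Grb10 and 4 lower than Nnat, while 3160 lay lower than Igf2. Of the 4 genes 3 were lower with non-overlapping libraries, as were 17.7% of all genes. The pluripotency sum was 629.2 to 820.2 FPKM in wild type and 575.6 to 943.8 in Daxx-null cells, mostly Sox2 (508 ± 30.4 and 725 ± 191). Its other markers except Utf1 (8.52 against 11.5) had higher means in wild type. Pou5f1 was at 35.4 ± 33.4 against 3.29 ± 0.455 and Zfp42 at 37.3 ± 7.19 against 10.7 ± 0.431. The endoderm marker sum was 579.2 to 1134 FPKM in wild type and 341 to 394.9 in Daxx-null cells (11 and 9 of 12 at a mean of at least 1). The neural sum was 1061 to 1386 and 1198 to 1852, the mesoderm and fibroblast sum 865.4 to 1036 and 533.5 to 1008, and the trophoblast sum 1108 to 1299 and 960.9 to 1588, with Prl3d1, Prl2c2 and Tpbpa, which mark trophoblast giant cells and spongiotrophoblast, at 0 in both. Krt18 (means of 721 and 742 FPKM) and Krt8 (236 and 241) made up most of the trophoblast sums. The part of such cells in the levels of H19, Grb10 and Nnat was not tested.

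**Figure D2:**
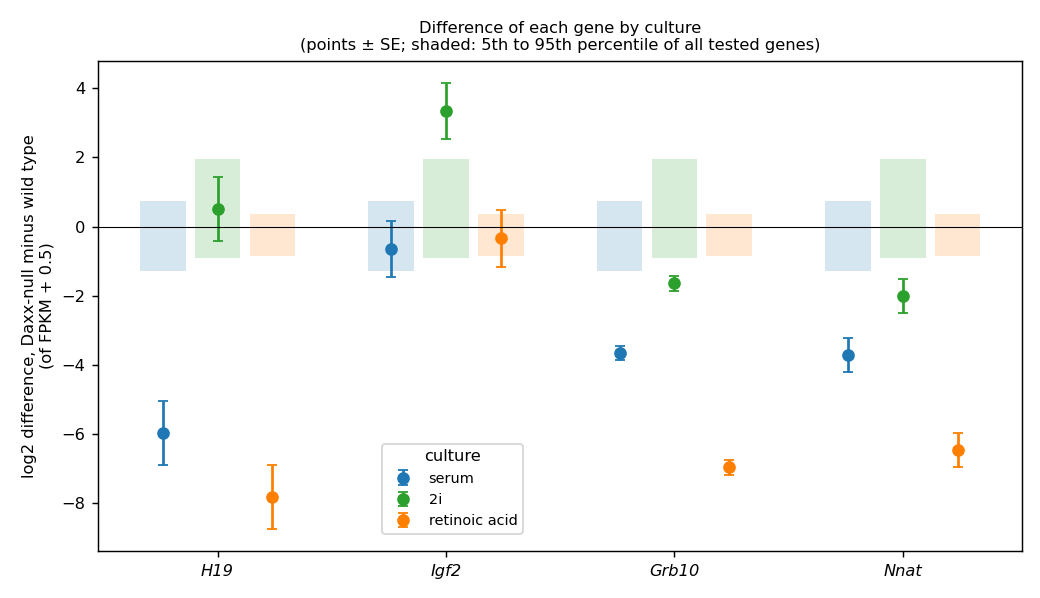
Daxx-null minus wild-type difference of each gene in serum, 2i and retinoic acid, on the log2(FPKM + 0.5) axis. Points are fitted differences with their SE, and shaded bars run from the 5th to the 95th percentile of all tested genes, -0.847 to 0.359 in retinoic acid. H19, Grb10 and Nnat lie below the bars in serum and retinoic acid, and Igf2 lies above the bar in 2i.

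In 2i the 4 genes divided differently. Igf2 was at 215.4, 226.7 and 13.3 FPKM in wild type and at 515, 2304 and 584 in Daxx-null cells. Every Daxx-null library was above every wild-type one, with wild-type replicate 3 far below its sisters and Daxx-null replicate 2 far above its own. The log2 difference was 3.34 (SE 0.814), the means differed 7.47-fold, and 83 of 18002 genes had a higher value. The larger log2 SD of the 2 groups was 2.31, above that shared SE. Without the 2 libraries that stand apart the log2 difference fell to 1.31. Daxx-null replicate 2 also had the highest neural marker sum of the Daxx-null 2i libraries (2592 FPKM against 427.8 and 378.6) and the highest mesoderm and fibroblast sum (483.5 against 88.06 and 89.86), and the part of such cells in its Igf2 level was not tested. Marker sums also moved with the genotype. The trophoblast sum was 643.6 to 830.7 in Daxx-null 2i and 66.51 to 173.7 in wild type (9 and 7 of 12 at a mean of at least 1, with Prl3d1 and Prl2c2 at 0 in both and Tpbpa in wild type), and the endoderm sum 239.5 to 358.6 against 41.55 to 100.8 (9 and 7 of 12). The keratin genes Krt18 (413 against 40.2 FPKM) and Krt8 (192 against 33.4) made up most of the Daxx-null trophoblast sum. Eomes of that list had a lower mean in Daxx-null cells (26.9 against 33.4). The pluripotency sum was 10250.0 to 20460.0 against 24190.0 to 26190.0. Wild-type replicate 3, lowest in Igf2, was also the lowest wild-type library in the endoderm (41.55), trophoblast (66.51) and mesoderm and fibroblast (56.18) sums. The part of such cells in the difference between genotypes was not tested.

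H19 in 2i was at 527, 429 and 14.6 FPKM in wild type and at 165, 298 and 197 in Daxx-null cells. Wild-type replicate 3 was the lowest of all 6 libraries and the other 2 wild-type libraries the highest. The log2 difference was 0.51 (SE 0.917), where the larger log2 SD of the 2 groups was 2.88. The difference turned to -1.15 without wild-type replicate 3 and to -1.40 without both libraries that stand apart. H19 thus has no fixed direction in 2i. The Daxx-null level of H19 was 71.3 times that of Daxx-null serum.

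Grb10 in 2i was at 143, 135 and 220 FPKM in wild type and 56.4, 45.6 and 53.2 in Daxx-null cells, with no overlap. The log2 difference was -1.64 (SE 0.209, 3.21-fold), and -1.33 without the 2 libraries. Nnat was at 85.5, 94.9 and 26.7 FPKM in wild type and 10.2, 35.1 and 8.33 in Daxx-null cells. Here Daxx-null replicate 2 passed wild-type replicate 3, so the groups overlapped. The Nnat difference was -2.02 (SE 0.487), and -3.22 without the same 2 libraries, among which the groups no longer overlap. With all libraries, 32.3% of all genes in 2i were higher and 15.5% lower without overlap, and of the 4 genes 1 was higher and 1 lower.

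Across cultures within a genotype, Igf2 was far higher in retinoic acid than in serum in both lines, and H19, Grb10 and Nnat were at their highest in wild-type retinoic acid. Both of these comparisons use the serum libraries that also enter the genotype difference in serum, so they are not independent of it. In wild type, retinoic acid minus serum was 7.91 for Igf2 (240-fold of means), 5.00 for H19 (31.3-fold), 2.84 for Nnat (6.95-fold) and 1.34 for Grb10 (2.50-fold), and all 4 genes were higher without overlap, as were 35.8% of all genes. In Daxx-null cells the same comparison gave 8.22 for Igf2 (295-fold) and 3.15 for H19 (10.4-fold). H19 thus stood above its serum level in both lines, but in Daxx-null cells it reached 32.2 ± 15.2 FPKM (SD, n = 3) and stayed under the 217 ± 63.8 of wild-type serum. Nnat differed by 0.09 (SE 0.487) with overlapping libraries. Grb10 was -1.97 (SE 0.209), the opposite direction to wild type, with each Daxx-null retinoic acid library below each Daxx-null serum library. In the same comparison 37.2% of all genes were higher and 37.9% lower without overlap.

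Between serum and 2i, wild-type cells were 1.24 apart for Igf2 (SE 0.814), -0.49 for H19 (SE 0.917), -0.73 for Grb10 (SE 0.209) and -1.23 for Nnat (SE 0.487). Only Nnat did not overlap, lower in 2i as were 30.6% of all genes, and its lowest serum library was 1.032 times its highest 2i library. The Igf2, H19 and Nnat values and all overlaps depended on 2i replicate 3. Without it the differences were 2.58 for Igf2, 1.17 for H19, -0.947 for Grb10 and -0.65 for Nnat, and no gene overlapped, with Igf2 and H19 higher and Grb10 and Nnat lower in 2i. Leaving out single libraries gave 0.555 to 2.58 for Igf2 and -1.56 to -0.65 for Nnat. Daxx-null cells were 5.99 higher in 2i for H19 and 5.23 for Igf2, with all libraries apart, against 1.29 for Grb10, also apart (43% of all genes were higher without overlap), and 0.47 for Nnat, which overlapped and became -0.155 without Daxx-null 2i replicate 2. Without that library the values were 5.75 for H19, 4.54 for Igf2 and 1.38 for Grb10.

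The order of the group means of H19 ran from wild-type retinoic acid to wild-type 2i, Daxx-null 2i, wild-type serum, Daxx-null retinoic acid and Daxx-null serum. Its neighbours in that order overlapped among the 2 groups of 2i and wild-type serum and were apart elsewhere. Igf2 ran from the 2 retinoic acid groups, which overlapped, to Daxx-null 2i, wild-type 2i, wild-type serum and Daxx-null serum, the last 3 overlapping from one to the next. Grb10 placed the 3 wild-type groups above the 3 Daxx-null groups, in the orders retinoic acid, serum, 2i and 2i, serum, retinoic acid, and only wild-type serum and wild-type 2i overlapped. Nnat ran from wild-type retinoic acid to wild-type serum and wild-type 2i, which were apart, and then to Daxx-null 2i, Daxx-null retinoic acid and Daxx-null serum, with overlap at each of these last steps. The rank of H19 among all genes went from above 99.95% in wild-type retinoic acid to above 44.57% in Daxx-null serum, and that of Grb10 from 98.33% in wild-type to 46.41% in Daxx-null retinoic acid.

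Because both transcripts come from 1 locus and FPKM is per length, the ratio of H19 to Igf2 can be read within each library. In wild-type serum it was 6.38, 5.35 and 5.55, and for Daxx-null serum 0.116, 0.145 and 0.108. In 2i it was 2.44, 1.89 and 1.10 in wild type and 0.320, 0.130 and 0.337 in Daxx-null cells. In retinoic acid it was 0.568, 0.623 and 1.22 against 0.00283, 0.00658 and 0.00385. The ratio was lower in every Daxx-null library than in every wild-type library of its own culture, and wild-type 2i replicate 3, which was low in both genes, still had a higher ratio than the 3 Daxx-null libraries of 2i. The ratios of Daxx-null serum also lay below those of wild-type retinoic acid.

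**Figure D3:**
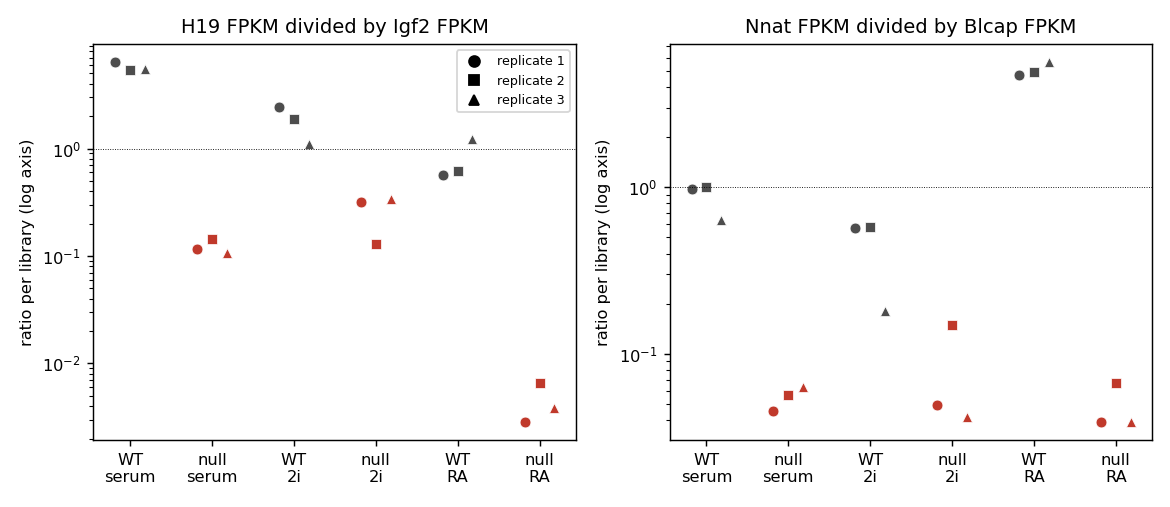
Ratio of H19 to Igf2 FPKM and of Nnat to Blcap FPKM in each of the 18 libraries, on log axes, grey for wild type and red for Daxx-null, with a dotted line at 1. The ratio of H19 to Igf2 is lower in Daxx-null than in wild-type libraries of each culture, and that of Nnat to Blcap is too.

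Some entries share reads with these genes. The sources used here do not give the strand of the reads, so values of such entries are not independent of the genes around them. The Mir675 entry, inside H19, was at 5174 to 8467 FPKM in wild-type retinoic acid and 8.36 to 39.2 in Daxx-null cells. Libraries of fragmented, oligo(dT)-enriched RNA do not measure the mature miRNA whose arms are printed above. The antisense Igf2os was between 1.354 and 5.093% of Igf2 in every library. Mir483, inside Igf2, was listed at 0 in all serum libraries of both genotypes and at 10.8 to 45.1 FPKM in retinoic acid.

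Nnat lies inside Blcap, a gene of the opposite strand that is biallelic in most tissues and encodes an apoptosis-related membrane protein. In serum Blcap was at 189 ± 11.3 FPKM for Daxx-null cells against 167 ± 11.2 (SD, n = 3; limma log2 difference 0.18, adjusted p = 0.118). In retinoic acid it was at 236 ± 5.91 against 201 ± 13.4 (0.23, limma adjusted p = 0.216), and in 2i it rose to 214 ± 19.8 from 154 ± 9.60 (0.47, limma adjusted p = 3.58e-04). The ratio of Nnat to Blcap was 4.69 to 5.64 in wild-type retinoic acid and 0.0388 to 0.0668 in Daxx-null cells. It was 0.633 to 1.00 against 0.0453 to 0.0634 in serum, and 0.180 to 0.574 against 0.0420 to 0.148 in 2i. In none of the cultures was Blcap called lower in Daxx-null cells, and reads of the 2 strands cannot be told apart where the genes overlap.

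**Figure D4:**
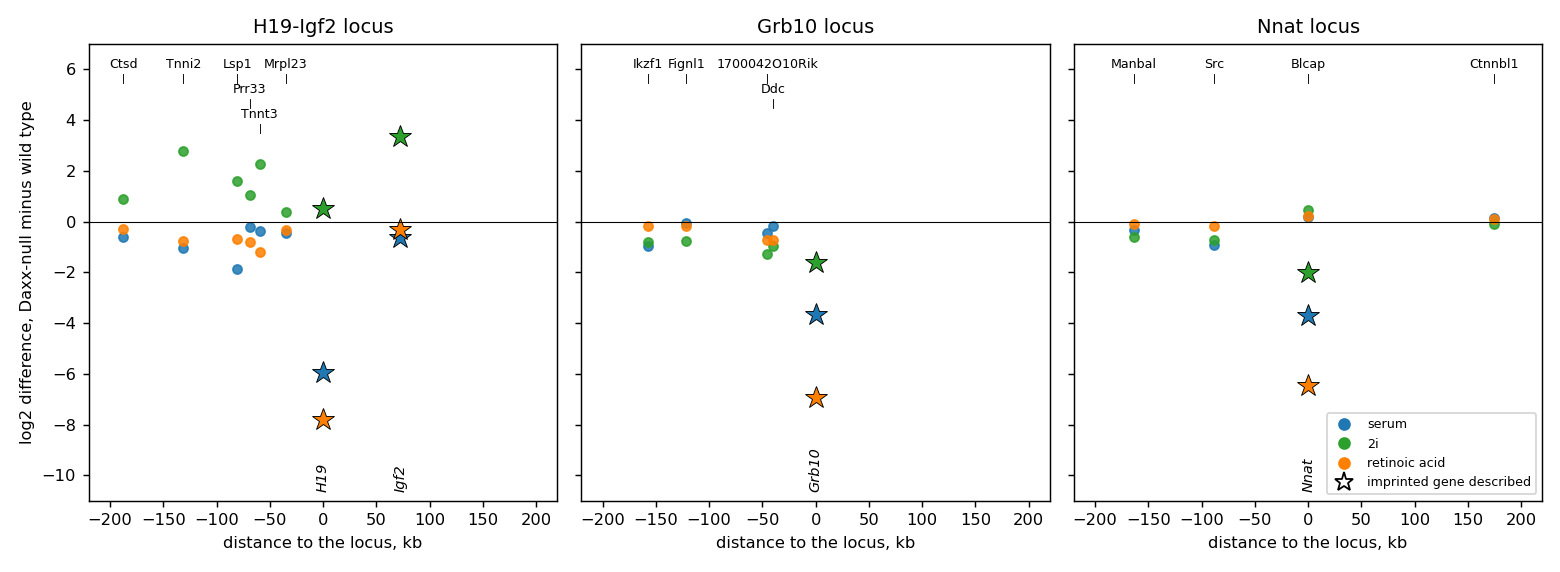
Daxx-null minus wild-type difference (log2) of the tested genes within 200 kb of the 3 loci, against distance in kb from H19, Grb10 or Nnat, colored by culture, with stars for the 4 imprinted genes. Igf2 is drawn at 72.6 kb from H19. In serum and retinoic acid the neighbours lie between -2 and 1, above the stars of H19, Grb10 and Nnat. The 4 were chosen with these differences in view.

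Beside the entries that share reads, 17 genes lay within 200 kb of the 3 loci, of which 14 passed the filter. Nctc1 and Ins2, which flank H19 and Igf2, and Syt8 did not pass it (Ins2, the insulin gene 11.84 kb past Igf2, reached at most 0.449 FPKM). In serum 0 neighbours were called higher and 4 lower by limma at an adjusted p under 0.05 (1 and 4 at an unadjusted p under 0.05), against 9.29% and 18.9% of all genes. These were Ctsd, which encodes a lysosomal protease (572 ± 48.8 against 870 ± 99.9 FPKM, log2 difference -0.60, limma adjusted p = 0.00623), the kinase gene Src (75.1 ± 2.45 against 145 ± 12.9, -0.94, 9.52e-05), Lsp1 (0.297 ± 0.232 against 2.50 ± 1.36, -1.87, 0.00557) and the lymphoid factor Ikzf1 (0.486 ± 0.0912 against 1.41 ± 0.309, -0.95, 0.0300). The Ikzf1 call was lost in the authors' deposited log2 table (limma adjusted p = 0.114) and without any of 5 single libraries (limma adjusted p up to 0.106, without wild-type replicate 1). With median-ratio scaling 2 neighbours were called higher.

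In retinoic acid, where H19, Grb10 and Nnat were farthest from wild type, 0 of the 14 tested neighbours were called by limma in either direction, against 2.49% of all genes (0.222% higher and 2.27% lower). At an unadjusted p under 0.05 there were 1 higher and 3 lower (12.5% of all genes in either direction), and 0 were called with either other scaling. Ddc, which encodes the decarboxylase that makes dopamine and serotonin and is the imprinted neighbour of Grb10, was at 35.9 ± 12.5 FPKM against 58.1 ± 4.02 (-0.74, limma adjusted p = 0.137). In 2i, 6 neighbours were called higher and 6 lower, against 31.5% and 15.3% of all genes. The p-values and shares in 2i, here and for the lists below, use the spread shared by all 18 libraries. A fit of only the 2 groups of 2i called 2724 genes higher and 1205 lower, against 5671 and 2760. Those higher included the muscle troponin genes Tnni2 (10.1 ± 6.68 against 0.980 ± 0.722 FPKM, 2.79, limma adjusted p = 6.84e-04) and Tnnt3 (3.15 ± 1.56 against 0.235 ± 0.314, 2.28, 2.03e-04), with Lsp1 (1.59), Prr33 (1.07), Ctsd (0.87) and Blcap. Those lower were Ddc (73.0 ± 23.5 against 138 ± 4.32 FPKM, -0.96, limma adjusted p = 0.00320), Fignl1 (-0.78), 1700042O10Rik (-1.26) and Ikzf1 (-0.79) around Grb10, and Src (-0.72) and Manbal (-0.62) near Nnat. Without the 2 libraries that stand apart 5 were called higher and 5 lower, and the calls of Lsp1 (0.812, limma adjusted p = 0.139) and Manbal (-0.295, 0.0947) ended. Leaving out 1 library ended the call of Lsp1 (limma adjusted p = 0.0502 without wild-type replicate 3), of 1700042O10Rik (0.0557 without Daxx-null replicate 2, and likewise without wild-type replicate 1 or 2) and of Ikzf1 (up to 0.179, without Daxx-null replicate 3), and the deposited log2 table ended those of Lsp1 and Prr33.

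The 5 lists of related genes were read from the same fit, and their median differences stand beside those of all genes, -0.121 in serum, 0.199 in 2i and -0.0466 in retinoic acid. With the deposited quantile-normalised values those medians were within 0.03 of 0, a shift of over 0.1 in serum and 2i, so differences near these sizes depend on the scaling. Factors that set, read or keep imprints had all 28 members tested. In serum 8 of 28 rose and 2 fell (median 0.129), where 9.29% of all genes rose and 18.9% fell. Zfp57 rose to 1752 ± 183 from 1210 ± 33.0 FPKM (0.53, limma adjusted p = 0.00747), Ctcf to 502 ± 14.7 from 405 ± 14.1 (0.31, 0.00466), Trim28 to 5861 ± 532 from 4167 ± 148 (0.49, 0.0199) and the Polycomb gene Eed to 853 ± 49.3 from 535.0 ± 33.9 (0.67, 0.00144). Ctcfl, the germline relative of Ctcf, fell to 3.01 ± 0.473 from 14.37 ± 3.92 (-2.05, limma adjusted p = 0.00124), and the methylcytosine dioxygenase gene Tet3 fell (-1.05, 0.0428). The maintenance methyltransferase gene Dnmt1 was at 463 ± 26.3 against 475 ± 41.1 (-0.03, limma adjusted p = 0.831). The calls of Trim28 (limma adjusted p = 0.0894 without Daxx-null replicate 1, and lost without wild-type replicate 1 or 3) and Tet3 (0.206 without Daxx-null replicate 1, and kept only without Daxx-null replicate 3) depended on single libraries, and with the deposited values 5 factors rose and 1 fell.

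In retinoic acid, where 0.222% of all genes rose and 2.27% fell, 1 imprint factor rose and 1 fell of 28 (median -0.0318; 3 and 3 at an unadjusted p under 0.05). Dnmt3l, the cofactor of the methyltransferases that set imprints in germ cells, fell to 2.22 ± 0.833 from 31.0 ± 27.0 FPKM (-3.24, limma adjusted p = 0.00138). Uhrf1, which guides Dnmt1 to replicated DNA, rose (361 ± 37.9 against 273 ± 9.76, 0.40, limma adjusted p = 0.0362), a call that was lost without any library but Daxx-null replicate 3 (up to 0.192, without Daxx-null replicate 1). Zfp57 was at 262 ± 6.88 against 289 ± 6.26 (-0.14, limma adjusted p = 0.776), Trim28 at 2496 ± 102 against 2084 ± 66.7 (0.26, 0.524), Ctcf at 431 ± 12.2 against 419 ± 10.3 (0.04, 0.918) and Dnmt1 at 379 ± 7.36 against 375 ± 14.5 (0.02, 0.995). In 2i 5 rose and 11 fell (median -0.220), or 4 and 15 without the 2 libraries that stand apart, where 31.5% of all genes rose and 15.3% fell. Dppa3, which guards maternal methylation in the zygote, rose to 349 ± 89.0 from 35.5 ± 19.7 FPKM (3.46, limma adjusted p = 4.58e-06), with Smchd1 (1.03, 8.17e-05) and Dnmt3a (0.80, 1.59e-04). Ctcf (-0.43, limma adjusted p = 2.27e-04) and Dnmt1 (-0.46, 8.49e-04) fell, while Zfp57 was at -0.11 (0.530).

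Among 31 tested of 35 genes that act with Igf2 and Grb10, the IGF and insulin axis, 2 rose and 8 fell in serum (median -0.286), where 9.29% of all genes rose and 18.9% fell. The binding protein genes Igfbp2 (1335 ± 64.4 against 4211 ± 260 FPKM, -1.66, limma adjusted p = 2.58e-06) and Igfbp4 (26.3 ± 1.76 against 75.8 ± 15.5, -1.49, 0.0383) fell, as did the receptor genes Insr (-0.94, 0.00861) and Igf2r (-0.69, 0.00656), the latter encoding the receptor that clears Igf2. Igf1r, which encodes the signalling receptor of Igf2, was at 31.4 ± 2.30 against 41.9 ± 8.83 (-0.39, limma adjusted p = 0.319). The Igfbp4 call was lost without any single library (limma adjusted p 0.0561 without wild-type replicate 3 to 0.107 without wild-type replicate 2) and that of Insr without Daxx-null replicate 1 (0.0511), and the deposited table gave 1 rise and 5 falls.

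In retinoic acid 0 of these 31 genes were called in either direction by limma (0 higher and 2 lower at an unadjusted p under 0.05, 0 called with either other scaling, median -0.0782). Igf1r was at 108 ± 22.4 against 106 ± 2.82 FPKM (0.01, limma adjusted p = 1.00), Igf2r at 164 ± 15.3 against 170.1 ± 16.5 (-0.05, 0.972) and Insr at 31.1 ± 1.73 against 38.3 ± 1.84 (-0.30, 0.732). In 2i 13 rose and 8 fell (median 0.340), and 6 rose and 6 fell without the 2 libraries that stand apart (median 0.0565). Over all genes 31.5% rose and 15.3% fell. The receptor genes Igf1r (1.07, limma adjusted p = 0.00509), Insr (0.85, 0.00923) and Igf2r (0.81, 0.00102) rose, and so did the substrate gene Irs1 (10.4 ± 11.5 against 1.33 ± 0.974 FPKM, 2.21, 0.00688) and Grb14, a relative of Grb10 (12.3 ± 1.20 against 3.24 ± 1.49, 1.85, 4.99e-05). Igfbp7 fell (13.2 ± 1.40 against 59.2 ± 21.0, -2.07, limma adjusted p = 9.75e-06). The deposited table ended the calls of Igf1r (limma adjusted p = 0.0843) and Insr (0.310). Without the 2 libraries that stand apart the calls of Igf1r (0.48, limma adjusted p = 0.0962), Insr (0.51, 0.0795) and Irs1 (0.87, 0.117) ended.

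The other imprinted genes are described beside the 4. The 4 were chosen with their differences in view, so a smaller change in the others is no test of them. Of 17 tested of 19 that are maternally expressed, 2 rose and 3 fell in serum (median -0.303), 0 rose and 2 fell in retinoic acid (median -0.0292), and 8 rose and 2 fell in 2i (median 0.600), or 7 and 4 without the 2 libraries that stand apart (median 0.331). Over all genes 9.29% rose and 18.9% fell in serum, 0.222% and 2.27% in retinoic acid, and 31.5% and 15.3% in 2i, so the falls in serum and 2i were near the share of all genes. With the deposited log2 values the serum median was 0.0405. In retinoic acid the falls were Asb4, of a ubiquitin ligase subunit (9.30 ± 1.16 against 29.7 ± 6.82 FPKM, -1.60, limma adjusted p = 0.00240), and the placental growth restrictor Phlda2 (18.8 ± 2.34 against 36.4 ± 4.41, -0.93, 7.13e-04). In serum the cell cycle inhibitor Cdkn1c rose to 693 ± 139 from 200 ± 16.8 (1.77, limma adjusted p = 0.0132), while Slc22a18 (-0.92, 0.0277) and the trophoblast factor Ascl2 (-0.92, 0.0480) fell. Both falls were lost without single libraries, Ascl2 without any of the 6 (up to 0.217, without Daxx-null replicate 1) and Slc22a18 without wild-type replicate 1 or 3 or Daxx-null replicate 2 or 3 (up to 0.102, without wild-type replicate 3). In 2i Cdkn1c (3.24, limma adjusted p = 8.92e-05), Osbpl5 (2.98, 2.02e-05) and the transporter gene Slc22a3 (2.30, 3.77e-04) rose, with 2.01 for Cdkn1c and 1.42 for Slc22a3 without those 2 libraries.

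Of 26 tested of 27 paternally expressed genes, 1 rose and 5 fell in serum (median -0.245), 0 rose and 3 fell in retinoic acid (median -0.113), and 10 rose and 3 fell in 2i (median 0.335), or 7 and 8 without the 2 libraries that stand apart (median 0.0669). The deposited log2 values gave 7 and 6 in 2i (median 0.0337). Against the shares of all genes just given, the falls in serum and the rises in 2i were near the background. Usp29, in the Peg3 domain, fell in serum to 0.921 ± 0.181 from 5.71 ± 0.427 FPKM (-2.13, limma adjusted p = 9.47e-07), as did Sgce (-0.98, 0.00290), and Dio3, of thyroid hormone inactivation, rose (1.27, 0.0378; up to 0.187 without wild-type replicate 3, and lost without any library but wild-type replicate 2). In retinoic acid Zrsr1 fell to 34.5 ± 0.528 from 64.8 ± 3.16 (-0.90, limma adjusted p = 7.13e-04). Sfmbt2 (-1.51, 0.0357) and Usp29 (-0.71, 0.0469) fell too, and both calls were lost without any 1 library (up to 0.203 for Sfmbt2 without wild-type replicate 3 and 0.195 for Usp29 without Daxx-null replicate 1). In 2i the placental gene Peg10 (1970.0 ± 960 against 225 ± 36.7 FPKM, 3.02, limma adjusted p = 1.11e-06), Dio3 (2.38, 3.92e-04) and Sfmbt2 (2.16, 2.08e-04) rose. Several well-known imprinted genes stayed near their wild-type level in retinoic acid, among them Mest (6277 ± 418 against 7002 ± 188, -0.16, limma adjusted p = 0.918), Meg3 (1397 ± 173 against 1588 ± 162, -0.19, 0.962), Dlk1 (2062 ± 579 against 1697 ± 162, 0.25, 0.934) and Cdkn1c (1714 ± 239 against 1752 ± 263, -0.03, 1.00). These 4 were picked for display after their values were seen.

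The last list held 14 genes tied to H19 through miR-675 and let-7, or to Nnat through its likeness to the calcium pump regulators Pln and Sln, of which 12 were tested. In serum 0 rose and 2 fell (median -0.118; 1 and 2 at an unadjusted p under 0.05), namely the tumour suppressor Rb1 (21.0 ± 5.38 against 37.5 ± 4.63 FPKM, -0.85, limma adjusted p = 0.0466, lost without any single library, up to 0.202 without Daxx-null replicate 1) and the blood factor Runx1 (-1.35, 0.0121, and 0.0566 without wild-type replicate 2), which was added to the 3 named per list after its value was seen. With either other scaling 1 rose and 1 fell. In retinoic acid 0 of 12 were called by limma (2 higher and 3 lower at an unadjusted p under 0.05, 0 with either other scaling; median -0.0188). In 2i 5 rose and 4 fell (median -0.282), but 4 rose and 7 fell with the deposited log2 values, and 4 and 6 without the 2 libraries that stand apart. Over all genes 31.5% rose and 15.3% fell there, and 9.29% and 18.9% in serum. Rises of this list in 2i included Tgfbi (73.5 ± 38.3 against 10.4 ± 1.42 FPKM, 2.65, limma adjusted p = 4.92e-06), Runx1 (2.50, 7.15e-05) and Rb1 (2.01, 8.61e-05).

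**Figure D5:**
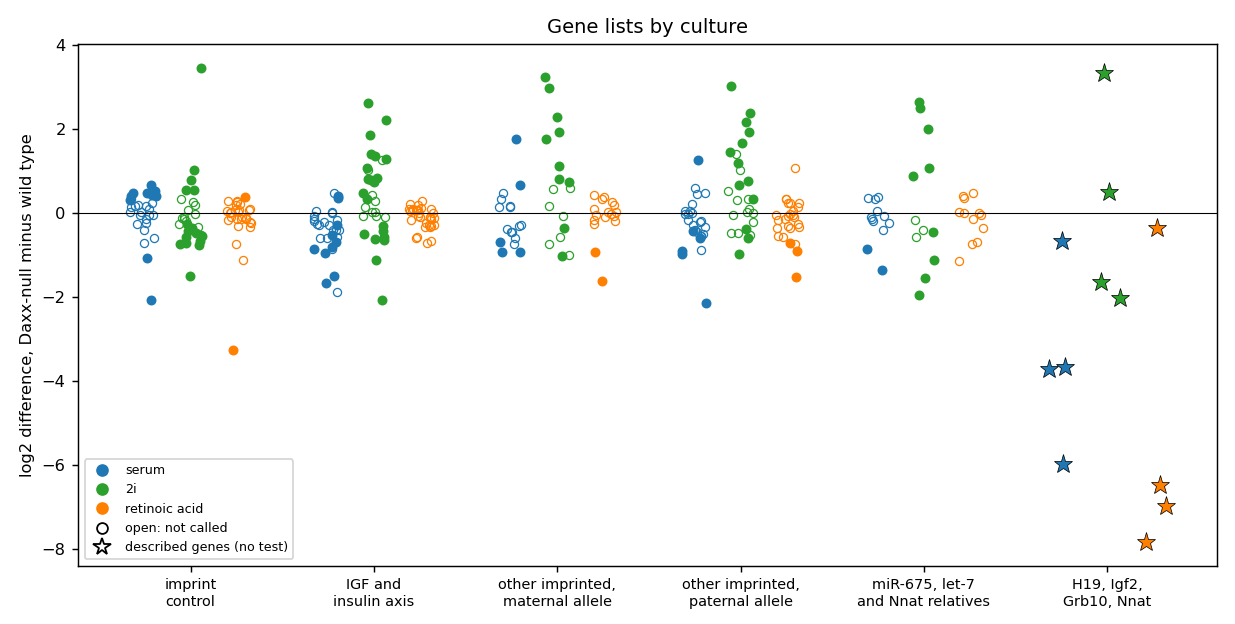
Daxx-null minus wild-type difference (log2) of every tested gene of 5 lists, by culture, filled where limma called it at an adjusted p under 0.05 and open otherwise, with stars for the 4 imprinted genes, which were not tested. In retinoic acid list genes lie between -3.24 and 1.1, and the stars of H19, Grb10 and Nnat lie below -6. The 4 were chosen with these differences in view.

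In wild-type cells going from serum to retinoic acid, where 30.4% of all genes rose and 34.1% fell, many genes of these lists changed beside the 4. Among paternally expressed genes 15 of 26 rose and 3 fell (median 1.41 against -0.0477 over all genes), led by Dlk1 (1697 ± 162 against 12.3 ± 4.28 FPKM, 7.10, limma adjusted p = 3.28e-09), the zinc finger gene Plagl1 (1664 ± 319 against 15.3 ± 3.50, 6.73, 1.30e-11) and Airn (5.36, 5.46e-07). Among maternally expressed genes 12 of 17 rose and 4 fell (median 1.04), with Slc22a3 up (4.18, limma adjusted p = 2.71e-07) and Ascl2 (-4.88, 3.81e-09) and Phlda2 (-4.01, 1.35e-12) down. In the IGF and insulin axis 17 of 31 rose and 10 fell (median 0.436). Igfbp5 (2107 ± 496 against 5.82 ± 1.26 FPKM, 8.37, limma adjusted p = 1.11e-06), Igf1 (6.14, 2.49e-07) and Igfbp4 (4.79, 5.75e-07) rose there, in the culture where Igf2 was highest. Of imprint factors 10 rose and 13 fell (median -0.108), with Dppa3 (-5.54, limma adjusted p = 2.72e-09) and Dnmt3l (-4.83, 4.46e-07) among the falls and Plagl1 again among the rises. Of the last list 4 rose and 4 fell (median 0.138), with the let-7 target Hmga2 (5.33, limma adjusted p = 3.14e-13) and Igf1r (1.35, 4.70e-04) up and the calcium pump gene Atp2a3 (-3.20, 3.24e-08) down.

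Over the 18 libraries, which share 6 groups, the pattern of Nnat was most like that of Grb10 among the 4 (Pearson r of log2(FPKM + 0.5) 0.868), then of H19 (0.856), and H19 and Grb10 were at 0.742. Igf2 was apart, with 0.556 to H19, 0.279 to Nnat and -0.079 to Grb10. These values describe groups more than libraries and carry no p. Of 14085 genes searched, those most like Igf2 were Ednra (r 0.994, an endothelin receptor), Antxr2 (0.992), the adhesion gene Alcam (0.992) and the collagen gene Col4a5 (0.992), all under 1 FPKM in both serum groups and highest in retinoic acid. Those most like H19 were Zfp160 (0.904), Klb (0.891), Zfp26 (0.876) and Srgn (0.864). Klb, the co-receptor of endocrine fibroblast growth factors, had group means of 5.29 FPKM in wild-type serum and 0.435 in Daxx-null serum, where H19 also differed, and 23.7 against 5.08 in retinoic acid. Those most like Grb10 were Zfp773 (0.884), the Y-linked Uty (0.882), 2610044O15Rik8 (0.880) and Nnat, and those most like Nnat were Grb10, 2610044O15Rik8 (0.861), H19 and Mid1 (0.850). Uty was at means of 22.5, 24.9 and 22.9 FPKM in wild-type serum, 2i and retinoic acid and at 0.0320, 12.7 and 0.0297 in Daxx-null cells, so it shares with these genes a low level in Daxx-null serum and retinoic acid.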

How the data were processed

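Libraries of RNA from 18 E14Tg2a cultures were analysed, 3 in each of 6 groups set by genotype and culture. Per the labels' protocols, oligo(dT) enrichment preceded removal of ribosomal RNA, and the series design names the removal only. The authors deposited FPKM for 24505 RefSeq entries per library. The submitters' processing notes list the build mm9 and the tools limma, HOMER 4.8 and Bowtie2 2.2.6. No source states the FPKM scale: a total of 10 M (1 M is 1000000) was inferred, so values are about 10 times a conventional FPKM. Counts were recovered from steps between low values (100% whole within a tolerance of 0.1). They served to give depth and not for tests. The authors also deposited log2 values after quantile normalization, used as an alternative. The authors' repeat FPKM are not used here.

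Tests used limma (3.58.1, R 4.3.3) with a variance trend, applied to log2(FPKM + 0.5) of the 18002 genes that reached an FPKM of 1 in 3 or more libraries. All 18 libraries entered 1 fit with 6 group means and 7 contrasts, and a call is a Benjamini-Hochberg adjusted p under 0.05 over all genes. The script was tested on simulated data. Labels call replicates independent without saying how, so p-values measure only the spread between these samples. The members and lists were chosen with earlier results of these data known. Named were all 4 members and up to 6 called neighbours per locus. Per list the 3 called genes with the largest difference, non-overlapping libraries and a mean FPKM of at least 5 were named, as were 9 partner genes and the 4 genes most alike in pattern. Alternatives were other pseudocounts, scalings, filters, blocks and libraries left out. Same-numbered libraries share no batch label, and the fit has no block. Sequences are from RefSeq tables of GRCm38.p6. Protein sequences are not used here.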

Additional observations from a re-analysis of the deposited data

Results flagged for a closer look

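Grb10 went opposite ways in the 2 genotypes between serum and retinoic acid. Every wild-type retinoic acid library was above every wild-type serum library (log2 difference 1.34), and every Daxx-null one below (-1.97), so that the differences were -3.30 apart, which was not tested.

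Some neighbours and list genes had all 3 Daxx-null libraries above wild type in one culture and all 3 below in another. The differences between cultures in these effects were not tested. All values are log2 differences of effects. Those of 2i minus serum were 4.06 for Dppa3, 3.86 for Runx1, 3.83 for Tnni2, 3.46 for Lsp1, 2.91 for Sgce, 2.86 for Rb1, 2.69 for Slc22a18, 2.66 for Tnnt3, 2.06 for Ascl2, 1.79 for Insr, 1.50 for Igf2r, 1.48 for Ctsd and 1.04 for Dnmt3a, each higher in 2i. They were -1.21 for Eed, -0.83 for Uhrf1 and -0.74 for Ctcf, each lower in 2i. Those of retinoic acid minus 2i were -4.56 for Dppa3, -3.67 for Sfmbt2, -3.64 for Runx1, -3.49 for Tnnt3, -2.87 for Phlda2, -2.20 for Asb4, -1.88 for Prr33, -1.14 for Insr and 1.06 for Uhrf1. Those of retinoic acid minus serum were -1.61 for Phlda2 and -0.67 for Zfp57. In all but the last 2 the Daxx-null cells of 2i, which differed in Y-linked RNA, enter 1 side.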

How the results depend on the processing

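Of 320 values of the 4 genes under alternatives, 306 kept their direction and moved by less than 1 SD of the replicates. So did 133 of the 136 for the differences between genotypes. The SD is the larger of the 2 groups compared. In 2i it was 2.88 for H19 and 2.31 for Igf2, raised by the libraries that stand apart, so these counts do not show stability there. Igf2 in 2i went from 3.34 to 1.31 without those libraries and is among the 306. In 2i the H19 difference was -1.40 and that of Nnat -3.22 without wild-type replicate 3 and Daxx-null replicate 2, and leaving out single libraries gave -1.15 to 1.41 for H19 and -2.64 to -1.63 for Nnat. H19 in wild-type 2i minus serum was 1.17 without the same 2 libraries and -1.39 to 1.17 without single ones. Nnat in Daxx-null 2i minus serum was -0.155 without them, -0.261 in the deposited log2 table and -0.155 to 0.851 without single libraries, and in Daxx-null retinoic acid minus serum it was -0.24 in that table and -0.179 to 0.225 without single libraries. The table also gave 8.48 for Igf2 in wild-type retinoic acid minus serum, and 5.32 for H19 and 0.786 for Grb10 in Daxx-null 2i minus serum.

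Counts over all genes moved more. The deposited table called 2146 genes lower in serum, 3725 higher and 4215 lower in 2i, 230 lower in retinoic acid and 6162 lower in Daxx-null 2i minus serum, against 3406, 5671, 2760, 408 and 3931 with FPKM. Fits of only the 2 groups compared called 2724 higher and 1205 lower in 2i and 268 lower in retinoic acid. Leaving out 1 library gave 1079 (without wild-type replicate 3) to 1377 called higher in serum, against 1672. In retinoic acid it gave 16 (without wild-type replicate 3 or Daxx-null replicate 1) to 39 higher, against 40, and 224 (without wild-type replicate 3) to 362 lower. A window of 100 kb left 2 neighbours called in serum and 7 in 2i, by fewer genes tested. The cause of the other changes was not tested.

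The labels name no batch for the replicate numbers, and most same-numbered libraries deviated together little (median r 0.027 over 45 pairs, 8 over 0.1). Pairs of wild-type serum and wild-type 2i were at 0.146, 0.171 and 0.326 for replicates 1 to 3, the last the highest of all. Replicate 3 was the lowest of both these groups for H19, Igf2 and Nnat. A shared cause was not tested. With a replicate block 46 genes were called higher and 384 lower in retinoic acid, and no count over all genes moved by over 1.5 times. Depth limits the low values: H19 in Daxx-null serum rests on 39 to 132 counts.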
